A study of Homo sapiens with 4 samples.

Results

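Homologous recombination rebuilds a broken chromosome from its sister copy, and the Fanconi anaemia pathway opens DNA interstrand crosslinks so that recombination can finish their repair. The 49 genes described here cover both pathways, from the proteins that sense a break to the nucleases that resolve the joined DNA, and were chosen by gene name. The rule uses no measured value, but the list was drawn up with earlier results of these data known. All 49 were found among the 55764 gene names of the deposited table. They were compared between TE5 cells that overexpress ETS1 and their controls.

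TE5 is an established human oesophageal squamous cell carcinoma line, cultured without any drug or DNA-damaging agent named in the labels. Cells of 2 libraries stably carried ETS1, a transcription factor of the ETS family that binds DNA through a GGAA core, under the CMV promoter after lentiviral infection and selection. Cells of the other 2 libraries carried the empty vector backbone, and this control is also called wild type in the labels. The study asked how ETS1 alters the transcriptome, with epithelial-mesenchymal transition, metastasis and immune evasion named in its title. The labels do not say whether the cells were a pool or a clone, or whether the libraries of a group came from separate cultures, so p-values measure only the spread between these samples.

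In homologous recombination, the MRE11-RAD50-NBN complex finds the break and activates the kinase ATM, while ATR and its partner ATRIP respond to single-stranded DNA. The ends are then resected, and BRCA1, PALB2 and BRCA2 prepare the exposed strand for the search for a matching sequence, with help from the paralog complexes of RAD51B, RAD51C, RAD51D, XRCC2 and XRCC3. In the Fanconi pathway, a multi-subunit core complex and the ubiquitin-conjugating enzyme UBE2T attach ubiquitin to FANCD2 and FANCI, USP1 removes it, and nucleases held by SLX4 cut the crosslink. Tumour cells that lose recombination can depend on polymerase theta, the product of POLQ, which joins broken ends at short matching sequences.

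RNA was measured in bulk as FPKM, fragments scaled to gene length and to the size of the library, so levels can be compared between genes. In bulk RNA, fewer cells of a type and less RNA per cell cannot be told apart. The reads recovered from the FPKM values came to 40356723 and 44119604 in the control libraries and to 57269984 and 56502875 in the ETS1 libraries, so the ETS1 libraries were deeper. ETS1 itself measured 0.491 and 0.509 FPKM in the controls and 1.84 and 1.87 FPKM in the ETS1 libraries, a ratio of 3.71, in the direction of the labels. On the log2(FPKM + 1) scale this was a change of 0.93 (limma adjusted p = 0.000704), and the ETS1 gene passed the filter on mean FPKM through the ETS1 libraries alone. Of the squamous markers that define the tissue of origin, KRT5, KRT14 and TP63 stood at 0 FPKM in each control, and the highest value of the 3 in an ETS1 library was 0.0165 FPKM. These 3 markers therefore do not show the squamous origin given for the line. KRT8 rose from 3.89 to 6.53 FPKM and KRT18 fell from 10.4 to 8.32 FPKM (limma adjusted p = 0.000591 and 0.00223). EPCAM went from 1.36 to 1.02 FPKM and was not called. CDH1, under the filter, went from 0.569 to 0.998 FPKM, and KRT19 was at most 0.0224 FPKM in any library. The sum of the 8 epithelial markers was 16.1 to 16.3 FPKM in the controls and 16.87 to 16.96 FPKM with ETS1. Immune markers summed to at most 0.0926 FPKM in any library. The fibroblast markers summed to 2.11 to 2.23 FPKM in the controls and 3.02 to 3.08 FPKM with ETS1, nearly all of it COL1A1, while COL1A2 was at 0 in both controls and in 1 ETS1 library and DCN was at 0 in both ETS1 libraries. LUM was at 0.00822 and 0.0376 FPKM in the controls and 0.168 and 0.141 FPKM with ETS1, and PDGFRB at 0.0312 and 0.00953 FPKM and at 0.0440 and 0.0570 FPKM. The part of these marker levels in the results was not tested.

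A change is given as the difference of mean log2(FPKM + 1), ETS1 minus control, with its standard error (SE). That scale understates the change of genes with low FPKM. A gene was called higher or lower when its adjusted p in limma, adjusted over the 14306 genes whose mean reached an FPKM of 1, was under 0.05. Of the 48 repair genes tested, 18 were higher with ETS1, 11 were lower and 19 were not called. As shares, 37.5% were called higher against 30.7% of all tested genes, and 22.9% were called lower against 28.4% of all. The members' shares lie near those of all tested genes, which are also the background for the counts in each small role group. The median change of 0.08 stood beside 0.02 over all tested genes. The changes were small: the median absolute change was 0.18, against 0.20 over all genes, and 3 of the 49 genes, FANCF, POLQ and FANCB, had a ratio of at least 1.5.

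The promoters of members were read to see which carried a sequence that an ETS factor can bind, since the cells differ in ETS1. RefSeq promoter windows of 300 bases, from 250 before to 50 after a gene's start, were matched by symbol for 44 of the 49 genes, in 59 windows. The ETS core searched was CCGGAAG, on both strands. It was held by 28.8% of the 59 windows, against 17.2% of the 14089 windows of tested genes and 10.3% of all 35116 windows. Among the members called higher, 9 of 17 genes with a window held it (10 of 21 windows, 47.6%). Among those called lower the count was 2 of 9 genes (2 of 12 windows, 16.7%), and among those not called 4 of 17 genes (5 of 25 windows). Over all tested genes the order differed: 16.1% of the windows of genes called higher held the core, 19.7% of those called lower and 16.6% of those not called. The 9 higher members with the core were USP1, GEN1, POLQ, ATR, RNF168, RAD50, BRCA2, SLX4 and EME1, and the 2 lower ones were FANCD2 and BLM. A match describes letters in a window and does not show binding.

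The windows that follow, 5′ to 3′ on the gene's strand of RefSeq GRCh38.p14, belong to the 2 higher and the 2 lower members with the core that changed most, and to the most changed called member without it, FANCB. Capitals mark the core CCGGAAG or its reverse complement.
POLQ, chr3:121545939-121546238, minus strand: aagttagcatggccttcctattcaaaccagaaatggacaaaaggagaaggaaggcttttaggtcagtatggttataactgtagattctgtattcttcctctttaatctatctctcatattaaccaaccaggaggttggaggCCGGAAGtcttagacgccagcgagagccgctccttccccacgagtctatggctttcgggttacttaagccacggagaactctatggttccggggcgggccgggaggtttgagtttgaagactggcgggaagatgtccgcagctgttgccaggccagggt
ATR, chr3:142578684-142578983, minus strand: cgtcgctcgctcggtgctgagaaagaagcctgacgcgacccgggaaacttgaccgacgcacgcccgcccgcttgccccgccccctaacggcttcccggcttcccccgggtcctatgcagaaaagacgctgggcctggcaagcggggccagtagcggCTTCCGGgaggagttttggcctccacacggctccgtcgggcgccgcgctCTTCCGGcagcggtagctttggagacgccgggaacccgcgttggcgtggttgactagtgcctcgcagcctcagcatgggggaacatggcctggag
FANCD2, chr3:10026187-10026486, plus strand: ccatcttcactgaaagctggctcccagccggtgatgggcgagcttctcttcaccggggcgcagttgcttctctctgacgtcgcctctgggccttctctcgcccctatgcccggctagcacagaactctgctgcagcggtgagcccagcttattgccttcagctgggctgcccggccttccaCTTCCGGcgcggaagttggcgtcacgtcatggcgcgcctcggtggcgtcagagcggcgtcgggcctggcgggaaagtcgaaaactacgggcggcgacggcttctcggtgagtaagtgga
BLM, chr15:90717096-90717395, plus strand: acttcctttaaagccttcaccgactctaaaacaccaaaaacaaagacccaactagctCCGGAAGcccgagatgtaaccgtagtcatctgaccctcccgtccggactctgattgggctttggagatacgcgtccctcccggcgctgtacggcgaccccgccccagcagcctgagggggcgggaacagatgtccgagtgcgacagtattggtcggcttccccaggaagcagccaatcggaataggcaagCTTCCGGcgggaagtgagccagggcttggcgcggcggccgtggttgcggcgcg
FANCB, chrX:14873020-14873319, minus strand: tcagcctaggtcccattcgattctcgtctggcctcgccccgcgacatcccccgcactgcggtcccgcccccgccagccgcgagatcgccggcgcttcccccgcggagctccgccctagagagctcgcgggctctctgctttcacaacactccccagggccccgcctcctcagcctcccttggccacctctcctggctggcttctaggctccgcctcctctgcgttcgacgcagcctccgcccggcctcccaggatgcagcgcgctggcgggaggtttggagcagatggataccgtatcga

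In these windows the start is base 251. POLQ carried the core once, with its first base 109 bases before the start. ATR carried it at 2 places, 94 and 45 bases before the start, both in the reverse direction. The core stood 69 bases before the start in FANCD2, and 193 and 3 bases before it in BLM. The E2F motifs TTTGGCGC and TTTCCCGC, which mark genes of S phase, were held by 0 of the 59 windows and by 5.08% of them, against 1.01% and 2.47% of the windows of tested genes and 0.652% and 1.63% of all windows. TTTGAA, the CHR element of genes expressed in G2 and mitosis, was held by 13.6% of member windows, 10.1% of the windows of tested genes and 15.2% of all windows. By call, TTTCCCGC was held by 0 of 21 windows of higher members, 2 of 12 of lower ones and 1 of 25 of those not called. TTTGAA was held by 19.0%, 16.7% and 8.0% of them. No match of one motif overlapped a match of another in the member windows.

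Break sensing and signalling was the largest group, with 13 genes. It held 5 higher, 2 lower and 6 uncalled genes, and its median change was 0.11. ATR, the kinase that answers stalled replication forks, measured 2.95 and 3.01 FPKM in the controls and 4.41 and 4.35 FPKM with ETS1. Both ETS1 libraries stood above both controls, and ATR rose by a ratio of 1.47 (change 0.44, SE 0.040, limma adjusted p = 0.00133). The gene lies at chr3:142449235-142578826 on the minus strand in GENCODE 29, on GRCh38, and 16.4% of its exon bases are shared with a gene on the other strand. ATRIP, the partner that holds ATR at coated single-stranded DNA, went the other way, from 8.19 and 8.36 FPKM to 6.34 and 6.27 FPKM (change -0.34, SE 0.034, limma adjusted p = 0.00153). ATRIP shares 27.9% of its exon bases with the exonuclease gene TREX1 on the same strand. TREX1 measured 5.48 and 5.19 FPKM in the controls and 2.92 and 2.96 FPKM with ETS1, and its part in the ATRIP value was not tested. Within a library, the ratio of ATR to ATRIP was 0.361 and 0.359 in the controls and 0.696 and 0.694 with ETS1.

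RAD50, the long coiled-coil subunit of the break sensor, was 8.10 and 8.39 FPKM in the controls and 11.1 and 11.2 FPKM with ETS1. It rose by a ratio of 1.35 (change 0.40, SE 0.034, limma adjusted p = 0.00115). Its 2 partners were not called. MRE11A, the nuclease of the complex, had a change of 0.11 at an adjusted p of 0.0502 in limma and was called higher under 4 of 19 alternatives (limma adjusted p from 0.0377 to 0.0467). NBN, the subunit that recruits ATM, had overlapping groups and a change of 0.02 (SE 0.035). NBN lies on chromosome 8 and was called higher with the chromosome median removed (change 0.20, limma adjusted p = 0.00501) but lower with the median of its nearer neighbours removed (change -0.14, limma adjusted p = 0.0182). In GENCODE 29 a further gene model, AC116366.3, shares 79.7% of the RAD50 exon bases on the same strand. RNF168, a ubiquitin ligase that marks chromatin around breaks, measured 3.75 and 3.26 FPKM in the controls and 4.67 and 5.15 FPKM with ETS1 (change 0.39, SE 0.074, limma adjusted p = 0.00938), a call lost with no filter (limma adjusted p = 0.0551). The spread within each group was wider for RNF168 than for ATR or RAD50, but the groups did not overlap. RNF8, the ligase that acts before it, was not called (change 0.13, SE 0.053), except by voom and with the local median removed (limma adjusted p = 0.0311 and 0.0426).

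TOPBP1, which activates ATR, and MDC1, the scaffold that reads phosphorylated H2AX, rose with ratios of 1.28 and 1.27. H2AFX, the gene of H2AX itself, was the most abundant of the group at 138 ± 5.05 FPKM in the controls (SD, n = 2) and fell to 121 ± 2.54 FPKM with ETS1 (SD, n = 2), a change of -0.18. Without ETS1 library 2 the call of H2AFX was lost (limma adjusted p = 0.0615). It was also lost, at smaller changes, under quantile normalization (-0.05), with the length trend removed (-0.08) and with length and GC removed (-0.03), at limma adjusted p = 0.195, 0.107 and 0.485. With no filter the H2AFX call was lost too (limma adjusted p = 0.0516). The kinases ATM, CHEK1 and CHEK2 were not called, with changes of 0.08, 0.05 and -0.06 (SE 0.042, 0.032 and 0.036). ATM was called lower with length and GC removed (change -0.19, limma adjusted p = 0.0131) and higher by voom on recovered reads (0.11, adjusted p = 0.0285). CHEK2 has 4 named pseudogenes in GENCODE 29, CHEK2P2 to CHEK2P5, and reads between such copies can be split by counting.

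**Figure D1:**
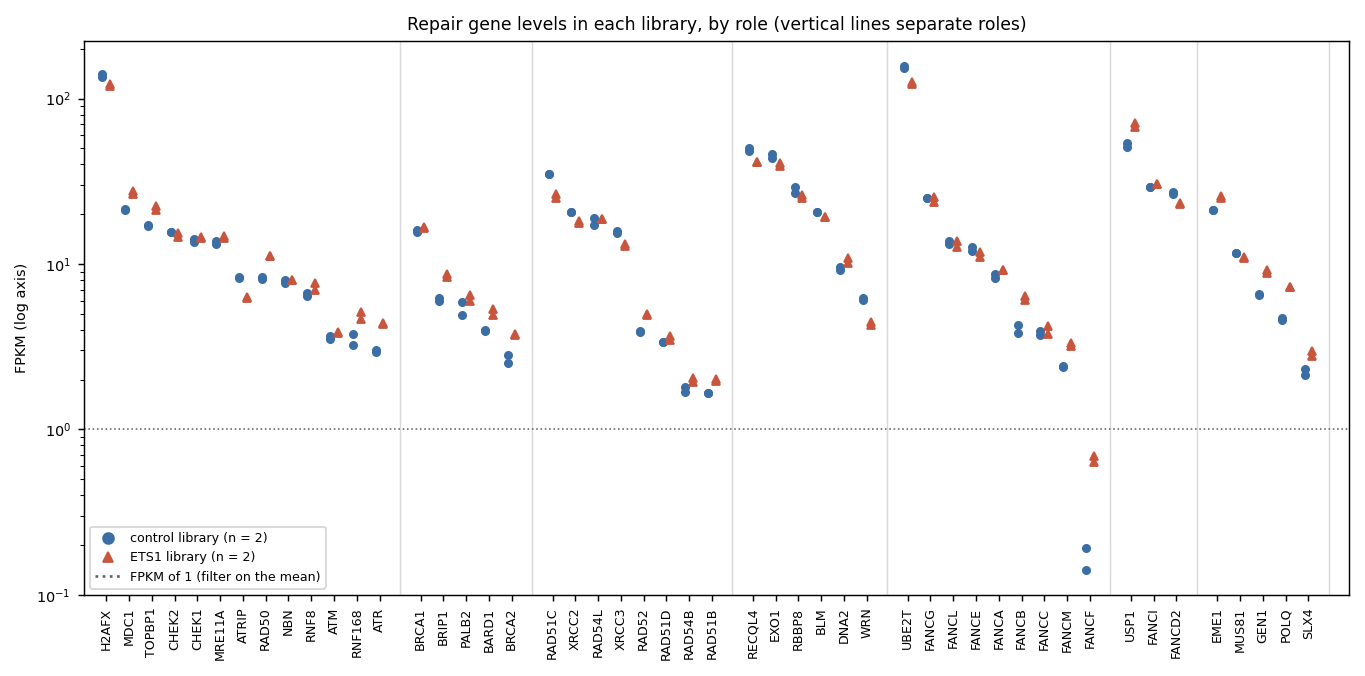
FPKM of the 49 repair genes in each of the 4 libraries on a log axis, ordered by role from left (break sensing and signalling, BRCA complexes, recombination paralogs with RAD52 and RAD54, resection and helicases, Fanconi core complex and its E2, ID complex and its deubiquitinase, nucleases and polymerase theta). Circles are control libraries, triangles are ETS1 libraries and the dotted line is an FPKM of 1. UBE2T and H2AFX were the most abundant, at 155 and 138 FPKM in the controls, and FANCF was the only member under the line.

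The BRCA complexes held 3 higher genes of 5, none lower, and had the highest median change of the groups at 0.31. BRIP1, a helicase that binds BRCA1 and is also a Fanconi gene, was 6.23 and 5.96 FPKM in the controls and 8.38 and 8.75 FPKM with ETS1. Its rise had a ratio of 1.40 (change 0.43, SE 0.041, limma adjusted p = 0.00145). BRCA2, which acts with PALB2 on the resected strand, rose from 2.53 and 2.80 FPKM to 3.71 and 3.79 FPKM (change 0.38, SE 0.055, limma adjusted p = 0.00434). The call for BRCA2 was lost once the trends of change on gene length and GC content were removed (change 0.10, limma adjusted p = 0.144). BARD1, the obligate partner of BRCA1, rose from 3.98 and 3.93 FPKM to 4.94 and 5.38 FPKM (change 0.31, SE 0.050, limma adjusted p = 0.00553). BRCA1 was 16.0 and 15.6 FPKM in the controls and 16.6 FPKM in both ETS1 libraries, and its change of 0.07 (SE 0.030) was not called, except under quantile normalization (change 0.10, limma adjusted p = 0.0388). The ratio of BARD1 to BRCA1 was thus 0.248 and 0.252 in the controls and 0.297 and 0.323 with ETS1. PALB2, the bridge between BRCA1 and BRCA2, had 5.87 and 4.92 FPKM in the controls and 5.96 and 6.53 FPKM with ETS1. Its groups did not overlap, but the controls lay far apart and it was not called (change 0.18, SE 0.085, limma adjusted p = 0.123). PALB2 was called higher by voom on recovered reads (change 0.22, limma voom adjusted p = 0.0309), and without control library 1 its change was 0.29.

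Among the 5 recombination paralogs (RAD51B, RAD51C, RAD51D, XRCC2 and XRCC3), RAD52 and the RAD54 genes, 2 of 8 were higher, 3 were lower and 3 were not called, with a median change of 0.06. RAD51C, a subunit of both paralog complexes, had the largest fall of all members on the log2(FPKM + 1) scale, while WRN fell more as a plain ratio. The gene lies at chr17:58692573-58735611 on the plus strand. It was at 34.95 and 35.03 FPKM in the controls and at 26.6 and 25.05 FPKM with ETS1, a ratio of 0.739 (change -0.42, SE 0.038, limma adjusted p = 0.00123). XRCC3, its partner in the complex of these 2 proteins, fell from 15.3 and 15.8 FPKM to 13.3 and 12.8 FPKM (change -0.24, SE 0.034, limma adjusted p = 0.00416). In GENCODE 29, 76.7% of the exon bases of XRCC3 lie opposite exons of KLC1, and use of strand is not given in the sources used here. KLC1 was 3.79 FPKM in both controls and 3.64 and 3.90 FPKM with ETS1.

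The other paralog complex joins RAD51B, RAD51C, RAD51D and XRCC2. XRCC2 fell from 20.5 and 20.6 FPKM to 17.7 and 18.2 FPKM (change -0.18, SE 0.029, limma adjusted p = 0.00569). RAD51B was higher by 0.17 at 1.67 and 1.66 FPKM in the controls and 2.01 and 1.97 FPKM with ETS1 (limma adjusted p = 0.0420). That call was kept under 3 of 18 alternatives and was lost whichever library was left out (limma adjusted p from 0.101 to 0.177). RAD51D was not called under any alternative, with a change of 0.06 (SE 0.045). RAD52, an annealing protein that can stand in for BRCA2 functions, rose from 3.85 and 3.93 FPKM to 5.00 and 4.93 FPKM (change 0.29, SE 0.038, limma adjusted p = 0.00336). Of the RAD54 translocases, RAD54L had overlapping groups and a change of 0.05, and it was called higher when control library 2 was left out (limma adjusted p = 0.0499). LRRC41, opposite 25.1% of the exon bases of RAD54L, was higher, at 10.07 and 10.2 FPKM in the controls and 12.5 and 12.6 FPKM with ETS1. RAD54B had a change of 0.12 and was not called, except with the median of chromosome 8 removed (change 0.30, limma adjusted p = 0.00431), while removal of the local median gave -0.03. It shares 59.1% of its exon bases with FSBP, which was at no more than 0.0933 FPKM in any library.

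Of 6 resection factors and helicases, 4 were lower and 1 was higher, and the median change was -0.14. Over all tested genes 28.4% were lower, and the calls of RECQL4 and BLM did not hold with the chromosome or the local median removed. WRN, the helicase and exonuclease lost in Werner syndrome, measured 6.08 and 6.19 FPKM in the controls and 4.30 and 4.48 FPKM with ETS1. WRN fell with a ratio of 0.716 (change -0.40, SE 0.039, limma adjusted p = 0.00146). RECQL4, a helicase of the same family, fell from 48.1 and 49.98 FPKM to 41.1 FPKM in both ETS1 libraries (change -0.25, SE 0.030, limma adjusted p = 0.00254). Both genes lie on chromosome 8, where the median change of 400 tested protein-coding genes was -0.18. BLM, the third RecQ helicase of the list, was lower by 0.09 (SE 0.027, limma adjusted p = 0.0357), and it lies on chromosome 15, where the median change was -0.23. With the chromosome median removed, BLM was called higher instead (change 0.14, limma adjusted p = 0.00881), and RECQL4 was not called (change -0.08, limma adjusted p = 0.0700). EXO1, which carries out long-range resection, fell from 43.9 and 45.9 FPKM to 40.7 and 39.1 FPKM (change -0.17, SE 0.037, limma adjusted p = 0.0164). DNA2, the nuclease of the parallel resection route, was higher: 9.54 and 9.17 FPKM in the controls against 10.1 and 10.9 FPKM with ETS1 (change 0.15, SE 0.048, limma adjusted p = 0.0443). The call for DNA2 was kept under 4 of 19 alternatives and that for BLM under 8 of 19. BLM lost its call whichever library was left out, and DNA2 kept its call when ETS1 library 1 was left out but not for the other 3 libraries. EXO1 lost its call without ETS1 library 2, under quantile normalization (change -0.06, limma adjusted p = 0.203) and with no filter (limma adjusted p = 0.0622). RBBP8, which starts resection with MRE11, was not called (change -0.12, SE 0.044), although the authors' deposited table lists it as lower with an adjusted p of 0.00983. RBBP8 was called lower under 8 of 19 alternatives in all, among them without control library 1 (limma adjusted p = 0.0256) and with the chromosome or the local median removed (changes of -0.26 and -0.27, limma adjusted p = 0.00450 and 0.00380).

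In the Fanconi core complex and its E2 enzyme, 2 of 8 tested genes were higher, 1 was lower and 5 were not called. FANCB, a scaffold subunit encoded on the X chromosome, was 4.29 and 3.83 FPKM in the controls and 6.42 and 6.07 FPKM with ETS1. FANCB rose with a ratio of 1.54 (change 0.52, SE 0.060, limma adjusted p = 0.00227). FANCM, the translocase that anchors the complex at a blocked fork, rose from 2.37 and 2.43 FPKM to 3.19 and 3.33 FPKM (change 0.33, SE 0.046, limma adjusted p = 0.00406). This call, too, was lost with the trends on length and GC removed (change 0.12, limma adjusted p = 0.0736). UBE2T fell from 153 and 157 FPKM to 125 and 123 FPKM (change -0.32, SE 0.028, limma adjusted p = 0.00122). FANCE, the subunit that contacts FANCD2, was 12.7 and 12.01 FPKM against 11.01 and 11.8 FPKM and was not called (change -0.11, SE 0.047), except with the chromosome median removed (change -0.18, limma adjusted p = 0.0190). FANCA, FANCC, FANCG and the ubiquitin ligase FANCL were not called either, with changes between -0.03 and 0.11, and the groups overlapped for FANCC, FANCG and FANCL. FANCA was called higher under 6 of 19 alternatives, among them without control library 2 (limma adjusted p = 0.0442) and with the local median removed (change 0.19, limma adjusted p = 0.00742). ZNF276, opposite 23.6% of the exon bases of FANCA, measured 5.84 and 6.38 FPKM in the controls and 4.45 and 4.32 FPKM with ETS1.

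FANCF, the adaptor subunit of the core complex, was the only member under the filter and had the largest ratio of the 49. The gene lies at chr11:22622890-22625841 on the minus strand. It was listed at 0.142 and 0.191 FPKM in the controls, from an estimated 19 and 28 reads. In the ETS1 libraries it was at 0.689 and 0.634 FPKM, from 131 and 119 recovered reads. The ratio was 3.97, and every ETS1 value lay above both controls, but the level stayed under an FPKM of 1 in every library. A fit with no filter gave FANCF a change of 0.51 (limma adjusted p = 0.0141). GAS2, which lies opposite 11.3% of the FANCF exon bases, was at 0.183 and 0.135 FPKM in the controls and 0.134 and 0.186 FPKM with ETS1.

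Of the ubiquitinated pair and its deubiquitinase, 1 gene was higher, 1 was lower and 1 was not called. USP1 rose from 53.6 and 51.1 FPKM to 67.6 and 71.1 FPKM (change 0.40, SE 0.040, limma adjusted p = 0.00156), while UBE2T, whose action USP1 reverses, fell as given above. Set against each other in a library, the ratio of USP1 to UBE2T was 0.350 and 0.325 in the controls and 0.541 and 0.578 with ETS1. FANCD2 fell from 26.6 and 27.1 FPKM to 23.1 and 23.4 FPKM (change -0.20, SE 0.028, limma adjusted p = 0.00392), a call lost with the local median of neighbouring genes removed (change -0.07, limma adjusted p = 0.0904). FANCI, the other substrate, was 29.04 and 29.2 FPKM in the controls and 30.5 FPKM in both ETS1 libraries, and was not called (change 0.07, SE 0.026, limma adjusted p = 0.0823). Alternatives that called it higher included quantile normalization (change 0.16, limma adjusted p = 0.00700) and removal of the chromosome median (change 0.30, limma adjusted p = 0.000603). The pair was close to parity in the controls, with FANCD2 at 0.916 and 0.928 of FANCI, and stood at 0.757 and 0.767 with ETS1.

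Nucleases and polymerase theta had 4 higher genes of 5, none lower, and a median change of 0.27. POLQ, at chr3:121431427-121546641 on the minus strand, had the largest change of all tested members. It measured 4.69 and 4.57 FPKM in the controls and 7.23 and 7.22 FPKM with ETS1, a ratio of 1.56 (change 0.55, SE 0.035, limma adjusted p = 0.000676). GEN1, a resolvase of four-way DNA junctions, rose from 6.51 and 6.56 FPKM to 9.24 and 8.81 FPKM (change 0.41, SE 0.038, limma adjusted p = 0.00132). SLX4, the scaffold of the crosslink nucleases, was higher at 2.78 and 2.99 FPKM against 2.13 and 2.31 FPKM (change 0.27, SE 0.057, limma adjusted p = 0.0138), but not without ETS1 library 2 (limma adjusted p = 0.0783), with no filter (limma adjusted p = 0.0589) or with the length trend removed (change 0.15, limma adjusted p = 0.0789). EME1 rose from 21.3 FPKM in both controls to 25.7 and 25.2 FPKM (change 0.25, SE 0.028, limma adjusted p = 0.00211). MUS81, the catalytic partner of EME1, was not called (change -0.08, SE 0.031), but was called lower under 4 of 19 alternatives, among them with the length trend removed (change -0.14, limma adjusted p = 0.0183). The ratio of EME1 to MUS81 was 1.83 in both controls and 2.32 and 2.33 with ETS1.

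**Figure D2:**
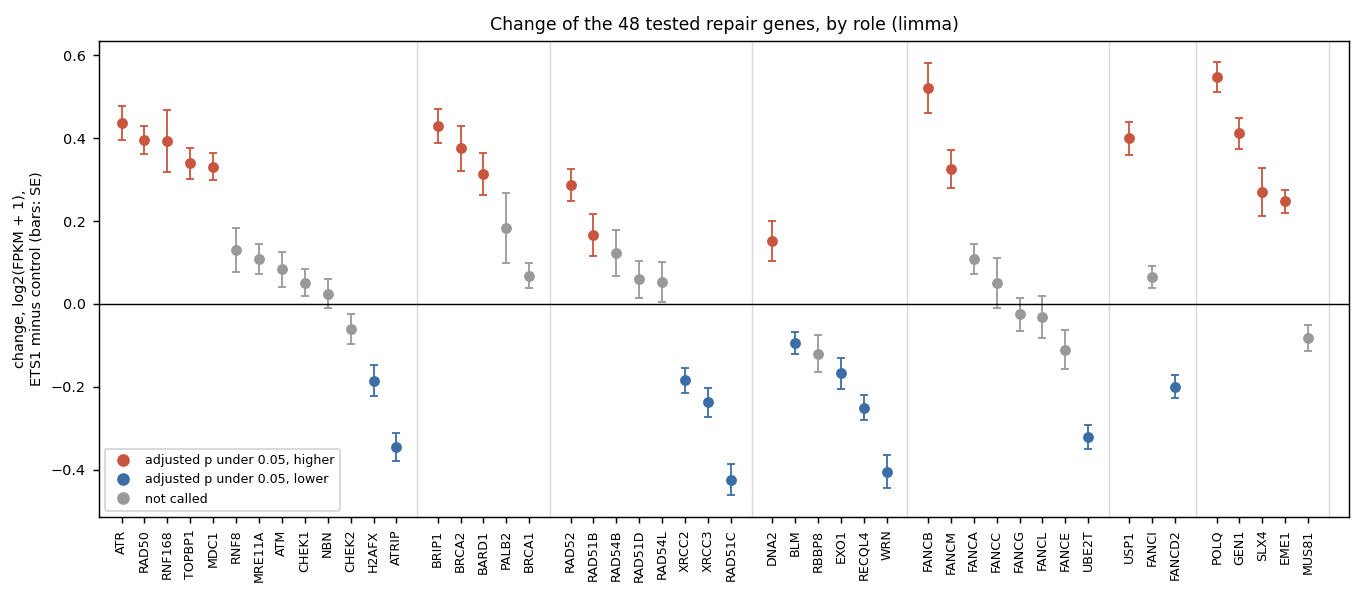
Change of each tested repair gene, as the difference of mean log2(FPKM + 1) between ETS1 and control libraries with its SE from limma, grouped by role in the same order as the plot of levels. Orange genes were called higher, blue lower and grey not called; POLQ at 0.55 and RAD51C at -0.42 are the ends of the range.

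Such ratios of known partners were computed for 12 pairs, chosen after the members' values were seen. The ratios are a description, and no background of other pairs was computed. The widest shift was ATR to ATRIP, 1.93-fold, and the smallest was NBN to MRE11A, at 0.94 of the control ratio. RAD51C to XRCC3 went from 2.28 and 2.22 to 2.01 and 1.95 although both genes fell. For any single ratio, 2 libraries a group allow no smaller two-sided p than 0.333 in an exact permutation test.

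Without regard to a threshold, the ETS1 and control libraries did not overlap for 28 of the 48 tested members in the direction of higher (58.3%, against 43.1% of all tested genes) and for 15 in the direction of lower (31.2%, against 38.9%). The groups overlapped for 5 members, NBN, RAD54L, FANCC, FANCG and FANCL. The authors' deposited table, a DESeq2 comparison, held 48 of the members and listed 16 as higher and 12 as lower at an adjusted p under 0.05. Over all genes of that table with an adjusted p, 25.3% were higher and 25.9% lower. Both analyses called 27 members in the same direction and 0 in opposite directions. RAD51B and DNA2 were called by limma alone, and RBBP8 in the authors' deposited table alone.

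Gene length moved with the direction of change. Of the 16 shortest tested members, 1062 to 4231 bases of exon, 3 were higher and 6 lower, with a median change of -0.05. Of the 16 in the middle, 6 were higher and 3 lower. Of the 16 longest, from FANCC at 7085 bases to ATM at 22309 bases, 9 were higher and 2 lower, and the median change was 0.22. The same bounds applied to all tested genes gave medians of -0.07, 0.05 and 0.13, with 20.6%, 37.2% and 47.6% called higher and 36.3%, 24% and 14.3% called lower. Spearman's rho between length and change was 0.43 over the 48 members and 0.28 over 12537 genes, as a description across genes of the same 4 libraries. With GC content it was -0.36 and -0.26. The exceptions among long members were XRCC3 and FANCD2, both over 7085 bases and lower, and among short ones FANCB, RAD52 and EME1, which were higher.

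**Figure D3:**
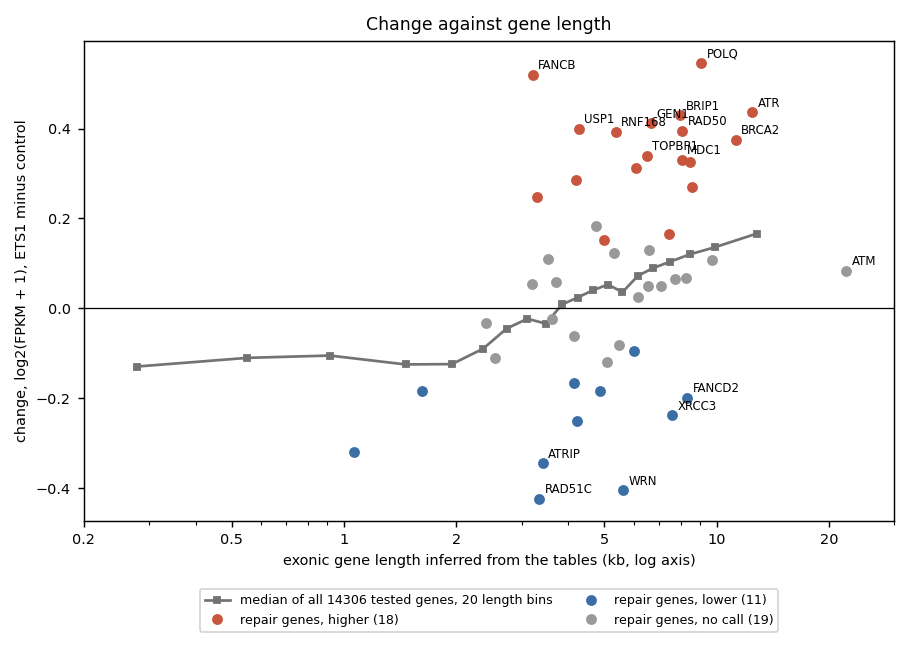
Change in log2(FPKM + 1) against exonic length in kb on a log axis, for the 48 tested repair genes (points, coloured by call) and for the median of all 14306 tested genes in 20 bins of equal number (grey line). The line climbs with length, and most higher genes lie above it while most lower genes lie below it.

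Removing the length trend of all tested genes left 16 higher and 12 lower members. With length and GC removed, an alternative added after the data were seen, 14 were higher and 13 lower, and the median change was 0.01. POLQ, FANCB, ATR, USP1, GEN1, RAD50, BRIP1, TOPBP1, MDC1 and EME1 were called higher under every alternative that could be fitted for them. RAD51C, XRCC3, WRN, ATRIP and UBE2T were called lower under all of theirs. No other called member kept its call throughout, and RAD51D, FANCC, FANCG, FANCL and CHEK2 were the uncalled members that were never called.

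The changes of neighbouring genes were read for each member, as a local median over up to 50 tested genes on either side. It was lowest for RECQL4 at -0.34, followed by WRN at -0.26, FANCI at -0.17 and BLM at -0.16. It was highest for NBN at 0.17, and RAD50, POLQ, ATR and USP1, all called higher, had 0.16, 0.16, 0.15 and 0.15. ATRIP and FANCD2 on chromosome 3 had local medians of -0.14 and -0.13, and XRCC2 on chromosome 7 had -0.10. With the local median subtracted, RECQL4 turned from lower to higher (change 0.09, limma adjusted p = 0.0459), and BLM lost its call and changed sign (change 0.06, limma adjusted p = 0.101). The calls of XRCC2, FANCD2, RAD51B and DNA2 were lost as well. WRN and ATRIP were still called lower, at smaller changes of -0.14 and -0.20 (limma adjusted p = 0.0226 and 0.00451). POLQ, ATR, USP1 and RAD50 were still called higher, also at smaller changes of 0.39, 0.28, 0.25 and 0.23. SLX4, with a local median of -0.06, kept its call at a larger change of 0.33. RAD51C and UBE2T had local medians of 0.03 and 0.10, the first of them near the 0.02 of all tested genes. FANCI was called higher after the subtraction (change 0.24, limma adjusted p = 0.00125). Whether copy number differs between the cultures was not tested.

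**Figure D4:**
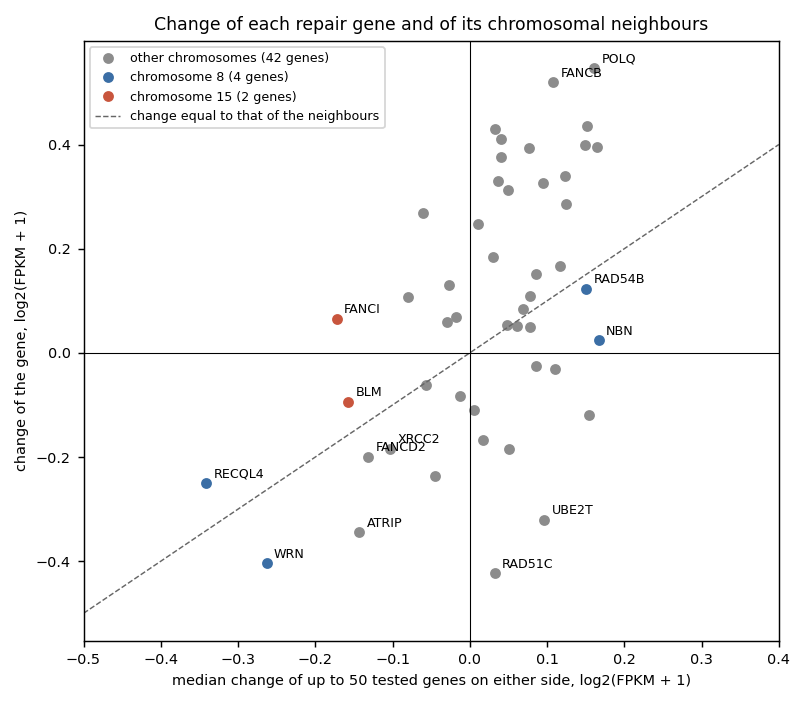
Change of each tested repair gene in log2(FPKM + 1) against the median change of up to 50 tested genes on either side on its chromosome, with genes of chromosomes 8 (blue) and 15 (orange) set apart and a dashed line where both are equal. RECQL4, WRN, BLM and FANCI sit at the left, with neighbours that fell, while POLQ and FANCB lie far above the line and RAD51C and UBE2T far below it.

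Other genes of the same pathways moved in both directions. Of 28 further recombination and Fanconi genes, 26 were matched and 24 tested, 10 higher and 6 lower, with a median change of 0.05. The shares of all tested genes, 30.7% called higher and 28.4% lower, are the background for the counts in this and each further list. Among the largest changes were falls of SWI5, a recombination accessory factor, and RMI2, a subunit of the BLM complex, although more genes of the list were higher than lower. SWI5 fell from 28.4 to 18.9 FPKM and RMI2 from 44.5 to 30.5 FPKM (limma adjusted p = 0.000516 and 0.00102). In the BRCA1-A and 53BP1 axis, which steers breaks away from resection, 3 of 12 genes were higher and 5 lower. BABAM1, a BRCA1-A subunit, fell by 0.38 on the log2 scale, while PAXIP1, which binds 53BP1, and SHLD1, of shieldin, were higher by 0.34 and 0.32.

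End joining, the main alternative to recombination, had 4 higher and 6 lower genes of 12 tested and a median of -0.10. Beside these counts and those below stand the 30.7% higher and 28.4% lower of all tested genes. PAXX, an accessory factor of Ku, fell from 114.8 to 69.3 FPKM (change -0.72), while XRCC4 and the ligase LIG3 rose by 0.46 and 0.39. Translesion polymerases and their helpers, which copy past damaged bases, had 5 higher genes of 6 and 1 lower, led by POLK, POLH and POLI at 0.49, 0.41 and 0.37. Nucleotide excision repair had 2 higher and 3 lower of 11, led by ERCC6 (0.39) and RAD23B (-0.30), and mismatch repair 1 higher, PMS2 (0.34), of 5 tested.

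Many recombination genes follow the cell cycle, so lists of both phases were read. Of 11 S phase genes, 8 were lower and 1 higher, with a median of -0.16, and CDT1, MCM7 and PCNA fell by 0.34, 0.31 and 0.27 on the log2 scale. All 8 genes of G2 and mitosis were higher, with a median of 0.35 and MKI67, TOP2A and PLK1 at 0.69, 0.44 and 0.38. Of all tested genes, 30.7% were called higher and 28.4% lower. The part of the cell cycle in the members' changes was not tested.

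**Figure D5:**
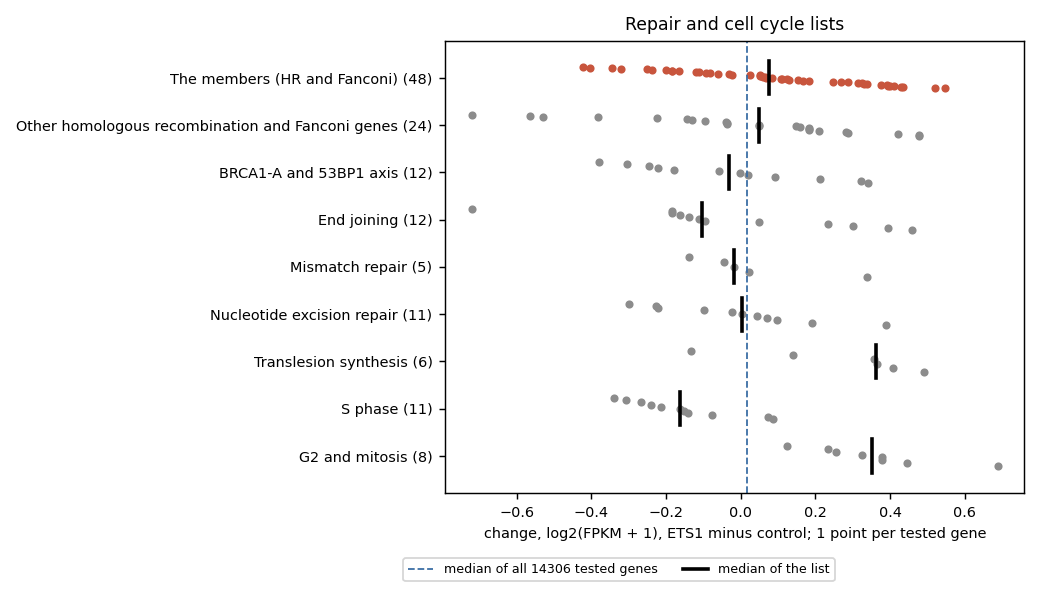
Change in log2(FPKM + 1) of each tested gene (points) in the member list and in 8 further lists, with the number tested in brackets, the median of each list (black bar) and the median of all 14306 tested genes (dashed line). The G2 and mitosis list and the translesion list lie to the right at medians of 0.35 and 0.36, the S phase list to the left at -0.16, and the members spread on both sides around 0.08.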

How the data were processed

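RNA of 4 TE5 libraries, 2 per group, was analysed from the deposited tables. FPKM per gene and library was computed by the authors. A second deposited table holds the authors' DESeq2 comparison, with a mean normalized count (a signal over the 4 libraries), log2 fold changes and p-values, per the file headers. HISAT2, HTSeq, DESeq2 and hg38 (GRCh38) are named in the submitters' processing notes; annotation version and strand setting are not given in the sources used here.

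Genes whose mean reached an FPKM of 1 were fitted as log2(FPKM + 1) with limma 3.58.1 in R 4.3.3 (lmFit, eBayes with an intensity trend, group term only), with 2 residual and 2.84 prior degrees of freedom, two-sided tests and Benjamini-Hochberg adjustment over 14306 genes. The fit was tested on simulated data. Raw counts were not used here. Whole reads were recovered from FPKM and the mean normalized count: 99.3% of the values of 2885 genes with a mean under 100 came within 0.05 of a whole number, and voom on these reads called 23 members higher and 12 lower. FANCF has no mean normalized count, so its reads were estimated by a fit over candidate lengths that this check does not cover. Replicates differed beyond counting noise in both groups, at 3.94 chi-square units per gene on average in each, and were kept as separate samples. Positions, exon overlaps and GC content come from GENCODE 29, and promoters from RefSeq GRCh38.p14.

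The members, role groups, lists and motifs were chosen with earlier results of these data known. In each role group, libraries are given for the 4 tested members with the largest absolute change, and for members under the filter, RAD51B and BRCA1 being added after their values were seen. Of each further list at most the 3 largest changes are named, and some genes that this rule picks are not reported here. Alternatives covered the pseudocount, the filter, scaling, the replicate number as a block, the variance prior, the threshold, the authors' deposited table, voom, chromosome, length and each library left out. Removal of the local median and of GC content was added after seeing the data.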

Additional observations from a re-analysis of the deposited data

How the results depend on the processing

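Over all alternatives the number of members called higher lay between 12 and 23 and the number called lower between 8 and 13, within 1.5 times the values of 18 and 11. The 12 came from the filter at a mean FPKM of 5 or more, where only 36 members were tested. Leaving out 1 library at a time, with a lone library assumed to vary like the other group, gave 15 to 18 higher, 8 to 11 lower and a median change of 0.07 to 0.09. The median change of 0.08 moved to 0.0108 with the length and GC trend removed, to 0.0378 at a mean FPKM of 5 or more, to 0.0395 with the length trend removed and to 0.0423 with length, GC and local median removed. BLM, called lower, turned to a call of higher with the chromosome median removed (0.14) and was positive but not called with the local median removed (0.0634). ATM (-0.19 with length and GC removed), NBN (-0.14 with the local median removed) and CHEK1 (-0.11 with length, GC and local median removed) turned from positive and uncalled to lower. Signs also turned for RECQL4 with the local median removed (0.0913) and with length, GC and local median removed (0.0752), for FANCI with the length trend removed (-0.0394) and with the length and GC trend removed (-0.0395), and for DNA2 with the length and GC trend removed (-0.0014) and with length, GC and local median removed (-0.0218). FANCI was not called under those settings, nor was DNA2. BARD1 and RAD52 lost their calls with length, GC and local median removed (0.12 and 0.10). The replicate block left 16 higher and 10 lower members. Deviations of libraries with the same number had a correlation of -0.05 over genes, so the numbers were not taken to pair the libraries. GC content was known for 87.6% of the tested genes. Depth limited FANCF most, at an estimated 19 and 28 reads in the controls. The sources used here do not say whether counting used strand, so members that lie opposite other genes, XRCC3 above all, are uncertain. RAD50 shares 79.7% of its exon bases with a gene model on the same strand, which counting by strand cannot separate, so its level is uncertain too.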

Other observations

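Outside the rule for named genes, and chosen after their values were seen, a few repair genes of the further lists were near 0 in every library. NHEJ1, an end-joining factor, was at 0.0718 and 0.0219 FPKM in the controls and 0.0281 and 0.0399 FPKM with ETS1. SLX1A and SLX1B, near-identical copies of the nuclease that works with SLX4, were at 0.0301 FPKM or less in every library, and reads of such copies can be lost or split in counting.

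The single-stranded DNA binding complex RPA was not in the member list. Its subunit RPA1 rose from 30.3 ± 0.608 to 34.6 ± 1.49 FPKM (SD, n = 2 each, limma change 0.18), RPA2 fell from 124.9 ± 1.61 to 95.6 ± 0.703 FPKM (change -0.38), and RPA3 fell from 34.0 ± 1.02 to 31.0 ± 0.616 FPKM (change -0.13).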
